A study of Mus musculus with 17 samples.

Results

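The genes that write and read DNA methylation were followed through mouse preimplantation development. They were the DNA methyltransferases Dnmt1, Dnmt3a and Dnmt3b and the methyl-CpG binding domain genes Mbd1, Mbd2, Mbd3 and Mbd4, and each probe set that the platform's annotation assigned to one of them was taken on its own. This gave 8 of the 12488 probe sets on the array, for 6 of the 7 genes. Dnmt1 and Dnmt3a had 2 probe sets each and the Mbd genes 1 each, while no probe set carried the name of Dnmt3b, which was not analysed here. Oocytes were measured on 4 Affymetrix MG-U74Av2 arrays, 1-cell and 2-cell embryos on 3 each, 8-cell embryos on 4 and blastocysts on 3, which makes 17. Every sample was total RNA of mouse oocytes or preimplantation embryos, amplified in 2 rounds of in vitro transcription. The labels gave no strain, genotype, maternal age or treatment, and did not say whether oocytes were taken before or after meiotic maturation or how many embryos made up a sample. They also did not say whether the arrays of a stage came from separate collections, so the p-values measure the spread between these arrays, which may be technical.

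DNA methylation in mammals sits mainly on cytosines that are followed by guanine (CpG). De novo enzymes of the Dnmt3 family place it, in oocytes chiefly Dnmt3a together with its cofactor Dnmt3l, and the maintenance enzyme Dnmt1 copies it onto the new strand after replication. Between fertilisation and the blastocyst most of the methylation inherited from the gametes is lost, while imprinted regions keep theirs, and the mouse egg carries an oocyte form of Dnmt1 made from an upstream start of its own. Proteins with a methyl-CpG binding domain read the mark or act beside it: Mbd1 and Mbd2 bind methylated CpG and recruit repressors, Mbd3 is a subunit of the NuRD deacetylase and remodelling complex with little preference for methylated DNA, and Mbd4 is a glycosylase that removes thymine from the mismatch left when a methylated cytosine is deaminated.

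The start regions of the genes whose signals changed most are shown here because the RefSeq table lists several starts for each of them, which differ in CpG content. The 250 bases before a start were read from RefSeq, build GRCm38.p6, 5′ to 3′ on the gene's strand, with each CG in capitals. CG was the only motif searched, and it reads the same on both strands. Of all 32851 start regions of this length in the table, 92.1% held at least 1 CG, with a median of 6. The regions of Dnmt1 are on chromosome 9, minus strand, and start 2 lies 6909 bases downstream of start 1:
Dnmt1 start 1 (chr9:20959889-20960138): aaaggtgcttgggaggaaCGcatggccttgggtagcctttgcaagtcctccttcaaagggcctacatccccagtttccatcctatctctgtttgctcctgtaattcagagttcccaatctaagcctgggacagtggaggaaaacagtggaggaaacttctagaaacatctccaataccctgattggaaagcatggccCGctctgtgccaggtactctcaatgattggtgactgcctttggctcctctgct
Dnmt1 start 2 (chr9:20952980-20953229): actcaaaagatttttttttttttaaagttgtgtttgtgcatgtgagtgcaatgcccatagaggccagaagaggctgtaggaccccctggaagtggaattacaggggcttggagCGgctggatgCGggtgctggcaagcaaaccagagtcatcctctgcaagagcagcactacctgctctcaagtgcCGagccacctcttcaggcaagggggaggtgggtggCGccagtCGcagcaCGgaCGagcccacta
The region of the upstream start held 2 CG and that of the second start 7. The region of another Dnmt1 start, 7265 bases downstream of start 1, held 26. The regions of Dnmt3a are on chromosome 12, plus strand, and start 3 lies 84764 bases downstream of start 1:
Dnmt3a start 1 (chr12:3806730-3806979): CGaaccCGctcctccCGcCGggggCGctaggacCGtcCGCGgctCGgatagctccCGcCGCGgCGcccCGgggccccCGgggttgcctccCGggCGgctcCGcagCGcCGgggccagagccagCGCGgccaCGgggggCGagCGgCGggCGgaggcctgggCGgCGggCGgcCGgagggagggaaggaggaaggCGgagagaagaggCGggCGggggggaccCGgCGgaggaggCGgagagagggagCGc
Dnmt3a start 3 (chr12:3891494-3891743): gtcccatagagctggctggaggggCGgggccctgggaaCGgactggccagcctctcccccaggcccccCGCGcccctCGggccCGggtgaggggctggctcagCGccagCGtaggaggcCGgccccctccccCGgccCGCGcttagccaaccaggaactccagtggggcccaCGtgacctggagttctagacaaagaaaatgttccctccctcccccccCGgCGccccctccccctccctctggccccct
The first Dnmt3a region held 38 CG, more than or as many as 98.44% of all start regions, and that of start 3 held 15. Among the members whose regions were counted, Mbd4 had 22 CG, Dnmt3b 21 and Mbd3 14. One signal per probe set does not tell transcripts from different starts apart, so none of the changes given next is assigned to a start.

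The deposited values are signals, the brightness of a probe set on a linear scale, and they do not allow the level of one probe set to be set against that of another. Changes are given on the scale log2(signal + 11), as the later stage minus the earlier one, with a standard error from a linear model (limma) over all 17 arrays. The added 11 is the lower quartile of all values, and it makes the fold of dim probe sets too small. A probe set was tested when 3 or more arrays had it above 41.1, the median signal over the table, and 8067 probe sets met this. It was called at a Benjamini-Hochberg adjusted p under 0.05. Of the 8 probe sets, 5 passed this filter: both of Dnmt1, 1 of Dnmt3a, and those of Mbd3 and Mbd4. Signals are relative to each array as a whole, and the RNA content of an embryo was not measured. In a blastocyst, which holds more than 1 cell type, fewer cells expressing a gene and less of its RNA per cell cannot be told apart.

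Landmark genes followed the stage labels. The summed signal of 9 probe sets of oocyte genes had a median of 318.7 on blastocyst arrays, against 34900 on oocyte arrays, and that of 15 probe sets of blastocyst genes had a median of 11985 on blastocyst arrays, against 839.4 on oocyte arrays. Cdx2, a defining factor of the trophectoderm, was dim on all 17 arrays, at no more than 15.8. Probe sets correlated at 0.935 to 0.979 between arrays of a stage, and at most at 0.891 between stages. Of the lists for other cell types, that for oviduct and uterus (9 genes, 17 probe sets, 10 of them tested) summed to 422.1 to 1009.6 on oocyte, 1-cell and blastocyst arrays, to 2113.3 to 2993.4 on 2-cell arrays, and to 584 to 10830.4 on 8-cell arrays. Its oviduct-specific member Ovgp1 (100521_at) read 6212.4 on 8-cell array 2, and 43.1 to 114.1 on the other 3 8-cell arrays. It was also high on each of the 2-cell arrays, at 1271.8, 714.7 and 688.1, against 28.8 to 56.4 on 1-cell arrays and 22.5 to 47.2 on oocyte arrays. This signal therefore moves with the whole 2-cell stage, its part in the changes between 2-cell embryos and other stages was not tested, and leaving out 1 2-cell array does not remove it. The 1-cell arrays stood apart in the 3 control probe sets of 18S ribosomal RNA, with a mean log2 signal of 13.53 (13.39 to 13.77 over the arrays), against 8.64 in oocytes (8.27 to 8.99) and 10.05 to 10.39 by the mean of each later stage, and no array of another stage reached them. Its part in the changes to and from the 1-cell stage, those of Dnmt1 and Dnmt3a included, was not tested. Lists for cumulus and granulosa, blood and sperm stayed between 106.4 and 491.5 on every array, but not all were level over the stages. The blood list summed to 155.3 to 184.3 on oocyte, 168.6 to 284.7 on 1-cell, 332.5 to 382.3 on 2-cell and 291.5 to 371.3 on 8-cell arrays. The sperm list summed to 426.1 to 491.5 on 2-cell arrays, against 317.5 to 400.6 on 1-cell arrays. The part of these lists in the changes of members was not tested. Where 8-cell array 2 changed a call on a member, the value without it is given.

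Dnmt1 (101445_at) fell at each step from the oocyte to the 8-cell embryo. Its signal was 2803.5, 2317.0, 3296.4 and 2293.4 on oocyte arrays, 1300.7, 1232.5 and 1543.1 on 1-cell arrays, 404.6, 404.9 and 384.3 on 2-cell arrays, 145.7, 230.1, 186.7 and 174.3 on 8-cell arrays, and 236.4, 263.2 and 210.2 on blastocyst arrays. Every oocyte array lay above every 1-cell array, every 1-cell array above every 2-cell array and every 2-cell array above every later one, while the 8-cell and blastocyst arrays overlapped. The mean was 1359 ± 163 in 1-cell embryos (SD, n = 3), against 2678 ± 475 in oocytes (n = 4), a change of -0.96 ± 0.17 (limma, adjusted p = 8.26e-05). It was 398 ± 11.8 in 2-cell embryos, a change of -1.74 ± 0.18 against 1-cell embryos (limma, adjusted p = 3.84e-08), the largest of its consecutive steps, on 2-cell arrays that all had the high Ovgp1 signal. In 8-cell embryos it was 184 ± 35.1, a change of -1.08 ± 0.17 against 2-cell embryos (limma, adjusted p = 9.44e-06).

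From there the decline of Dnmt1 did not go on. The blastocyst mean, 237 ± 26.5, differed from the 8-cell mean by 0.35 ± 0.17 (limma, adjusted p = 0.0912), which was not called. Without 8-cell array 2, on which Ovgp1 was high and Dnmt1 was the highest of its stage, the difference was 0.46 and was called (limma, adjusted p = 0.0347). With the arrays set to their hybridisation spikes, control RNAs added to each sample before hybridisation, it was 1.46 (limma, adjusted p = 0.000185), in a scaling in which the median of all tested probe sets itself moved by 0.89. Over the whole course Dnmt1 was 10.8-fold lower in blastocysts than in oocytes (95% interval 8.49 to 13.7, limma, adjusted p = 1.17e-13).

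Among all probe sets tested, the fall of Dnmt1 was far out in the distribution. Between blastocyst and oocyte 232 of 8067 probe sets had a lower change (2.88%), and between 2-cell embryo and oocyte 92 had (1.14%). At the single steps more probe sets fell further: 1022 in 1-cell embryos against oocytes, 349 in 2-cell against 1-cell embryos and 1340 in 8-cell against 2-cell embryos. For any difference between the 5 stages its moderated F of 208 ranked at 279 of the 8067 probe sets, of which 84.7% were called by this test.

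**Figure D1:**
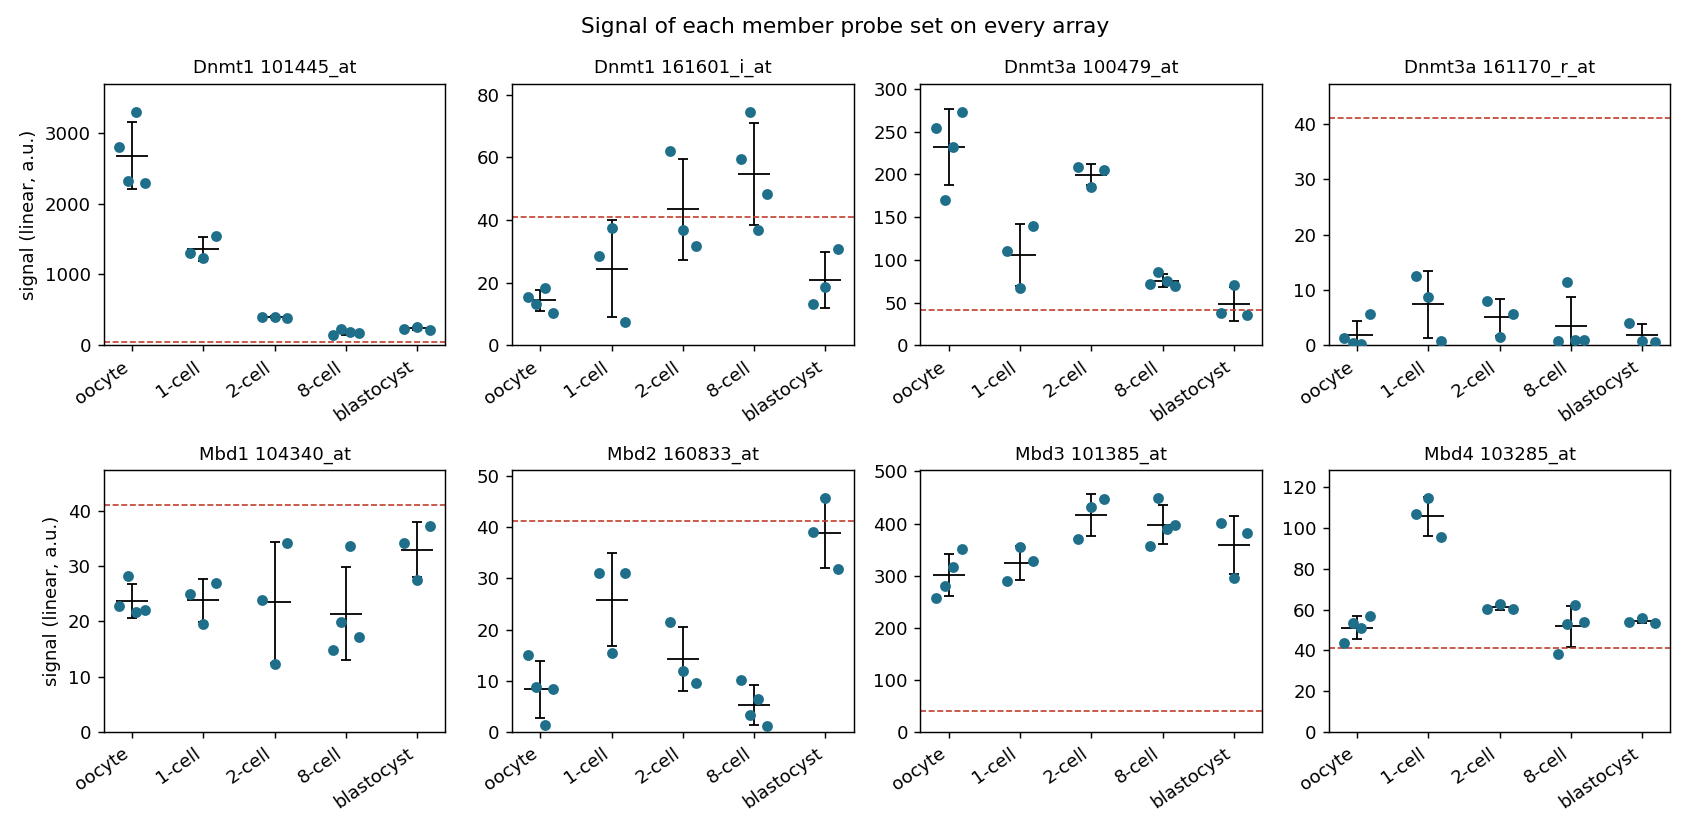
Signal of each member probe set (y axis, linear scale, a range of its own in each panel) on the 17 arrays, by stage in developmental order. Points are arrays, horizontal lines and bars are the mean ± SD of a stage, and the dashed line is the filter at a signal of 41.1. Dnmt1 (101445_at) falls to the 8-cell stage, Dnmt3a (100479_at) has high oocyte and 2-cell arrays, Mbd4 is highest in 1-cell embryos, and the probe sets of Mbd1, Mbd2 and the second one of Dnmt3a stay near or below the line.

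The second probe set of Dnmt1 (161601_i_at) did not show this course. In Affymetrix's naming the letter i marks a probe set with fewer unique probes than usual. It was dim, with a signal above 41.1 on 4 of the 17 arrays, 1 of the 2-cell and 3 of the 8-cell stage. It thus passed the filter only through the stages in which it was highest, and its calls as higher there are a description of these values and no independent support for them. It read 15.5, 13.1, 18.4 and 10.4 on oocyte arrays, 28.4, 37.6 and 7.4 on 1-cell arrays, 61.9, 36.8 and 31.7 on 2-cell arrays, 59.4, 74.6, 36.7 and 48.2 on 8-cell arrays, and 13.3, 18.6 and 30.8 on blastocyst arrays. The 2-cell and 8-cell arrays all lay above the oocyte arrays, and the blastocyst arrays lay below the 8-cell arrays. It was called lower in blastocysts than in 8-cell embryos, by -1.05 ± 0.32 (limma, adjusted p = 0.0116), and this call was lost without blastocyst array 1 (-0.87, limma, adjusted p = 0.0652). Against oocytes it was called higher in 2-cell embryos, by 1.07 ± 0.32 (limma, adjusted p = 0.00785), and in 8-cell embryos, by 1.35 ± 0.30 (limma, adjusted p = 0.000382). With spike scaling none of these 3 changes was called (-0.17, 0.51 and 0.26). The call in 2-cell embryos was also lost with quantile normalization (0.80, limma, adjusted p = 0.0608) and without 2-cell array 1 (0.84, limma, adjusted p = 0.0571). In the same comparisons with oocytes the bright probe set changed by -2.70 and -3.78. Across the 17 arrays the probe sets had a Pearson correlation of -0.64, given as a description of arrays that share stages. The files hold no probe sequences, so which Dnmt1 transcripts each one detects was not tested. Averaged over both probe sets, Dnmt1 was called lower in 2-cell than in 1-cell embryos (-0.52, limma, adjusted p = 0.0375) and in blastocysts than in oocytes (-1.56, adjusted p = 2.58e-07), but not in 1-cell embryos against oocytes (-0.29, adjusted p = 0.249) or 8-cell against 2-cell embryos (-0.40, adjusted p = 0.0771).

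Dnmt3a (100479_at) went down, up and down again. Its signal was 253.7, 170.3, 232.2 and 273.4 on oocyte arrays, 110.7, 67.0 and 139.0 on 1-cell arrays, 208.5, 185.4 and 205.4 on 2-cell arrays, 72.0, 86.0, 75.5 and 69.6 on 8-cell arrays, and 38.2, 70.7 and 36.0 on blastocyst arrays. No 1-cell array reached the lowest oocyte or 2-cell array, the oocyte and 2-cell arrays overlapped, and so did the 8-cell and blastocyst arrays. In 1-cell embryos Dnmt3a averaged 106 ± 36.3 (SD, n = 3), against 232 ± 44.7 in oocytes (n = 4), a change of -1.09 ± 0.23 (limma, adjusted p = 0.000771). In 2-cell embryos it averaged 200 ± 12.5, higher than in 1-cell embryos by 0.90 ± 0.25 (limma, adjusted p = 0.00486), and its difference from oocytes, -0.19 ± 0.23, was not called (adjusted p = 0.538). With spike scaling that difference was -1.04 and was called (limma, adjusted p = 0.00766). The 2-cell arrays with this higher signal are those with the high Ovgp1 signal, whose part in it was not tested. In 8-cell embryos it averaged 75.8 ± 7.23, lower than in 2-cell embryos, with a change of -1.28 ± 0.23 (limma, adjusted p = 8.01e-05).

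The last step of Dnmt3a was the least firm of its changes. It averaged 48.3 ± 19.4 in blastocysts, lower than in 8-cell embryos by a change of -0.59 ± 0.23 that was just called (limma, adjusted p = 0.0464). Blastocyst array 2, at 70.7, lay within the 8-cell arrays. The call was lost under several other settings and in 13 of 17 fits that left out 1 array: adjusted p was 0.164 without blastocyst array 1, 0.196 without blastocyst array 3 and 0.0989 without 8-cell array 2. With spike scaling the change was 0.38 (adjusted p = 0.324). Over the whole course Dnmt3a was 4.18-fold lower in blastocysts than in oocytes (95% interval 2.98 to 5.86, limma, adjusted p = 9.46e-08), with no overlap of arrays. This was the other called fall among the members, and 703 of the 8067 probe sets had a lower change.

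The second probe set of Dnmt3a (161170_r_at) lay between 0.2 and 12.6 on the 17 arrays, under the filter on all of them. The letter r marks a probe set for which Affymetrix's usual rules of probe choice were relaxed. It read 4.1 at most in blastocysts, 11.4 at most in 8-cell embryos and 5.6 at most in oocytes, and its stages overlapped in every comparison of consecutive stages, so it carries no statement about Dnmt3a.

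**Figure D2:**
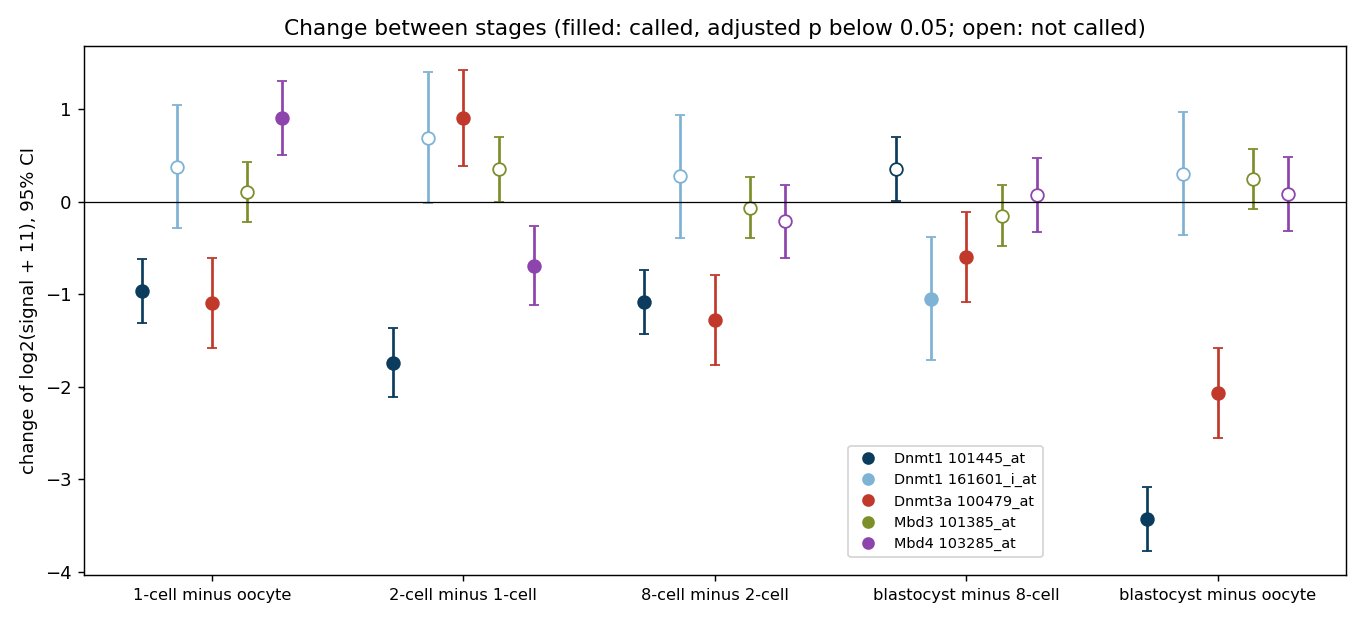
Change of log2(signal + 11) of the 5 tested member probe sets (y axis, later minus earlier stage) in each comparison, with bars for the 95% interval of the limma fit and filled points where the change was called (adjusted p under 0.05). The bright Dnmt1 probe set has changes of -0.96, -1.74 and -1.08 over the first 3 steps, and Dnmt3a alternates between -1.09, 0.90 and -1.28.

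Mbd3 (101385_at), the NuRD subunit, had the lowest moderated F of the 5 tested member probe sets. Its signal was 257.2, 280.9, 316.1 and 351.1 on oocyte arrays, 290.1, 355.4 and 327.7 on 1-cell arrays, 370.2, 432.0 and 447.5 on 2-cell arrays, 357.4, 448.2, 388.6 and 398.0 on 8-cell arrays, and 400.1, 296.2 and 382.3 on blastocyst arrays. The oocyte arrays lay below all 2-cell and 8-cell arrays, the 1-cell arrays lay just below the 2-cell arrays, and the blastocyst arrays overlapped with each other stage. In no consecutive step was it called in the reported fit. The difference of 2-cell from 1-cell embryos was 0.35 ± 0.17 (limma, adjusted p = 0.0952). Mbd3 in 2-cell embryos exceeded that in oocytes by 0.46 ± 0.16 (limma, adjusted p = 0.0195) and in 8-cell embryos exceeded it by 0.39 ± 0.15 (adjusted p = 0.0218), in comparisons that called 49.1% and 65.8% of all probe sets. Both calls depended on the scaling: with spike scaling the differences were -0.41, not called, and -1.09, called lower (limma, adjusted p = 0.000934). In that scaling Mbd3 was also called lower in 1-cell embryos than in oocytes (-0.97, limma, adjusted p = 0.00939). It was called higher in blastocysts than in 8-cell embryos (0.99, limma, adjusted p = 0.00739). The median of all tested probe sets itself moved by -0.87 and 0.89 in these 2 steps. With median centring the first difference was 0.34 and not called (limma, adjusted p = 0.107). The first call did not survive the removal of oocyte array 1 (0.39, limma, adjusted p = 0.0650), 2-cell array 2 or 2-cell array 3. The second did not survive the removal of oocyte array 1 (0.32), oocyte array 2 (0.36) or 8-cell array 2 (0.34), with limma's adjusted p between 0.0534 and 0.0794.

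Mbd4 (103285_at), the repair glycosylase, was highest in 1-cell embryos. Its signal was 43.4, 53.3, 51.2 and 56.7 on oocyte arrays, 106.8, 114.5 and 95.7 on 1-cell arrays, 60.3, 62.6 and 60.2 on 2-cell arrays, 38.3, 52.7, 62.3 and 53.8 on 8-cell arrays, and 54.1, 55.9 and 53.5 on blastocyst arrays. The lowest 1-cell array, at 95.7, was above the highest of any other stage, at 62.6. In 1-cell embryos it averaged 106 ± 9.45 (SD, n = 3), against 51.1 ± 5.64 in oocytes (n = 4), higher by 0.91 ± 0.19 (limma, adjusted p = 0.000666). In 2-cell embryos it averaged 61.0 ± 1.36, with a change of -0.69 ± 0.21 against 1-cell embryos (limma, adjusted p = 0.00798). The later steps were -0.21 ± 0.19 in 8-cell against 2-cell embryos and 0.08 ± 0.19 in blastocysts against 8-cell embryos, neither called (limma, adjusted p = 0.373 and 0.781), and blastocysts differed from oocytes by 0.08 ± 0.19 (adjusted p = 0.735). In 8-cell against 1-cell embryos Mbd4 was lower by -0.91 ± 0.19 (limma, adjusted p = 0.000264), in a comparison that called 66.4% of all probe sets. That call held under each alternative that tested it, spike scaling included (limma, highest adjusted p = 0.00412). In blastocysts against 1-cell embryos Mbd4 was also called lower, by -0.83 ± 0.21 (limma, adjusted p = 0.0012). With spike scaling this difference was -0.17 and was not called (limma, adjusted p = 0.687). The RNA of an embryo was not measured, so whether the 1-cell peak holds per embryo was not tested. With spike scaling Mbd4 in 1-cell embryos was -0.05 against oocytes (limma, adjusted p = 0.900) and -0.49 in 2-cell against 1-cell embryos (adjusted p = 0.297), neither called. In that scaling the median of all probe sets itself moved by -0.87 in 1-cell embryos against oocytes, and Mbd4 was called higher in blastocysts than in 8-cell embryos (1.01, limma, adjusted p = 0.00649). The 1-cell arrays, on which Mbd4 was high, are those with the high 18S signal, and its part in this result was not tested.

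Mbd1 and Mbd2, which bind methylated CpG, did not pass the filter, so they have neither a fold nor a test. Mbd1 (104340_at) lay between 12.3 and 37.2 on all 17 arrays, at 34.1, 27.5 and 37.2 in blastocysts, against 22.8, 28.2, 21.6 and 22.0 in oocytes, and these ranges overlapped. Mbd2 (160833_at) read 15, 8.7, 1.3 and 8.3 on oocyte arrays, 31.0, 15.4 and 31.1 on 1-cell arrays, 21.4, 12 and 9.6 on 2-cell arrays, 10.1, 3.3, 6.5 and 1.2 on 8-cell arrays, and 39.1, 45.6 and 31.9 on blastocyst arrays. Its blastocyst arrays were the highest of all, 1 of them above 41.1, and did not overlap with those of 8-cell embryos or oocytes. Arrays that do not overlap were common: among the tested probe sets they made up 43.4% between blastocysts and 8-cell embryos and 66.4% between blastocysts and oocytes.

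Counted by comparison, the members stood as follows. In 1-cell embryos against oocytes 3 of the 5 tested probe sets were called, Mbd4 higher and Dnmt1 and Dnmt3a lower, where 37.1% of all tested probe sets were called (17.3% higher, 19.8% lower). In 2-cell against 1-cell embryos 3 were called, Dnmt3a higher and Dnmt1 and Mbd4 lower, where the share over all was 47.2% (26.0% higher, 21.2% lower). In 8-cell against 2-cell embryos 2 were called, Dnmt1 and Dnmt3a, both lower, against 54.1% of all (25.8% higher, 28.3% lower). In blastocysts against 8-cell embryos 2 were called lower, Dnmt3a and the dim probe set of Dnmt1, which had passed the filter through the 8-cell and 2-cell arrays, against 42.5% of all (21.8% higher, 20.7% lower). In blastocysts against oocytes 2 were called lower, Dnmt1 and Dnmt3a, against 64.3% of all (32.2% higher, 32.1% lower). With 5 probe sets these counts do not set the members apart from the rest of the array. The shares over all probe sets depend on the scaling: with spike scaling the calls were 31 higher and 4560 lower for 1-cell embryos against oocytes, and 4596 higher and 200 lower for blastocysts against 8-cell embryos. Arrays of the stages compared did not overlap for 3, 4, 2, 1 and 2 of the 5 in the order of these comparisons, where 46.0%, 53.9%, 51.7%, 43.4% and 66.4% of all tested probe sets did not overlap.

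**Figure D3:**
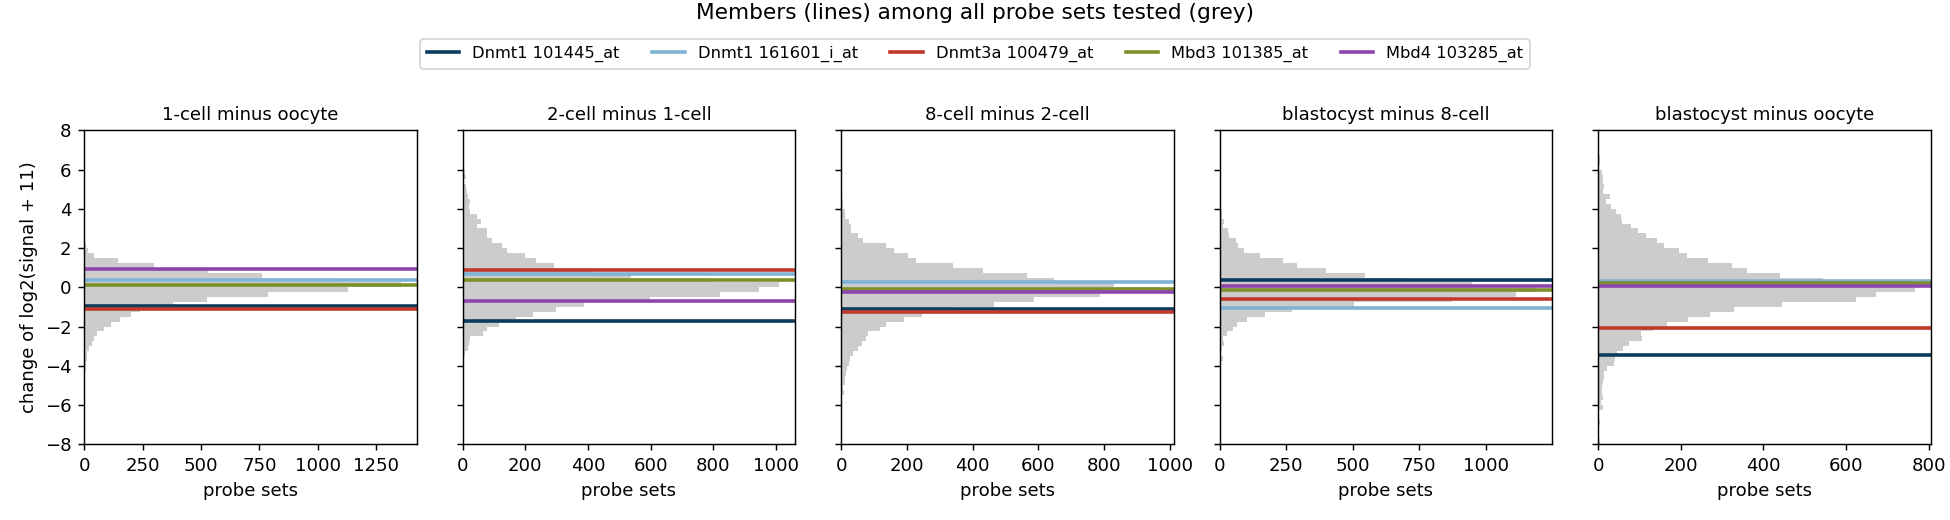
Change of log2(signal + 11) in each comparison (later minus earlier stage) of the 5 tested member probe sets, as horizontal coloured lines, over the distribution of all 8067 tested probe sets. The bright Dnmt1 probe set lies in the lower tail between blastocyst and oocyte, where 2.88% of the probe sets had a lower change, while Mbd3 stays near the middle.

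The order of the stages followed from these tests. For Dnmt1 (101445_at) it was oocyte, 1-cell, 2-cell, blastocyst and 8-cell, high to low, and each neighbour differed from the next except the last pair. Blastocyst minus 2-cell embryo was -0.73 (limma, adjusted p = 0.00127), in a comparison that called 59.7% of all probe sets; with spike scaling it was -0.21 and not called. For Dnmt3a it was oocyte, 2-cell, 1-cell, 8-cell and blastocyst, where oocyte and 2-cell embryo had no called difference except with spike scaling, as given above. Nor was 8-cell minus 1-cell embryo called (-0.38, limma, adjusted p = 0.163), in a comparison that called 66.4% of all probe sets. It was called with quantile normalization (-0.52, limma, adjusted p = 0.0390), with median centring (-0.51, limma, adjusted p = 0.0435) and without 1-cell array 2 (-0.64, limma, adjusted p = 0.0261). For Mbd4 the 1-cell embryo stood first, and the 2-cell embryo, blastocyst, 8-cell embryo and oocyte followed with no called difference between neighbours in the reported fit. With spike scaling blastocyst against 8-cell embryo was called (1.01, limma, adjusted p = 0.00649). So was 8-cell embryo against oocyte (-1.24, limma, adjusted p = 0.000229). For Mbd3, whose mean was highest in 2-cell embryos and lowest in oocytes, no pair of neighbours had a called difference in the reported fit, although the F test over the 5 stages was called (limma, adjusted p = 0.0466).

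The probe sets most like each member over the 17 arrays, by Pearson correlation of log2(signal + 11), were taken from all tested probe sets with 1 gene symbol. Dnmt1 (101445_at) was followed most closely by Gja4 (0.986), the connexin of oocyte gap junctions, by the growth factor gene Fgf8 (0.983) and by Pycrl (0.981), an enzyme of proline synthesis. Gja4 averaged 5.7 in blastocysts, against 1494 in oocytes. For Dnmt3a they were Stat4 (0.927), a transcription factor of cytokine signalling, Ngef (0.921) and Znhit2 (0.920). Stat4 shared its alternation, at 181, 41.8, 202, 8.8 and 3.9 by mean signal over the 5 stages in developmental order. For Mbd4 they were Clk3 (0.890), a kinase of splicing factors, Snx4 (0.887) and Raly (0.887), each with its highest mean in 1-cell embryos. For Mbd3 they were Gadd45b (0.825), Pheta1 (0.819) and Bid (0.813), and for the dim Dnmt1 probe set Ilf2 (0.844), Dnajb6 (0.821) and Bex1 (0.820). Such values arise among many probe sets that share the stages, and they are given as a description. Among the members themselves the bright Dnmt1 probe set had a correlation of 0.68 with Dnmt3a, -0.67 with Mbd3 and 0.28 with Mbd4.

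Cofactors of the methyltransferases were listed as 13 genes, of which 11 were tested through 12 probe sets. In 1-cell embryos against oocytes 6 of the 12 were called higher and 1 lower, with a median change of 0.63, where the median of all probe sets was 0.04. Over all tested probe sets 17.3% were called higher and 19.8% lower. Neither this list nor those below were tested against such shares. Hells, a chromatin remodeller needed for methylation of repeats, was 270 ± 34.3 in 1-cell embryos, against 104 ± 19.7 in oocytes (1.30 ± 0.19, limma, adjusted p = 8.95e-06). Dmap1, a protein that binds Dnmt1, was the 1 that fell, to 33.9 ± 3.96, against 330 ± 24.1 in oocytes (-2.93 ± 0.29). In 2-cell against 1-cell embryos 9 of the 12 were called lower and 1 higher, with a median of -0.98, where the median of all was 0.06. Of all tested probe sets 21.2% were called lower and 26.0% higher. Zfp57, the zinc finger protein that holds methylation at imprinted regions, was 76.5 ± 20.2 in 2-cell embryos, against 544 ± 190 in 1-cell embryos (-2.62 ± 0.27, limma, adjusted p = 4.11e-08). With spike scaling the first of these counts was 0 higher and 3 lower, with a median of -0.48. Of all 8067 probe sets that scaling called 31 higher and 4560 lower in this step, with a median of -0.87. The second count was 1 higher and 5 lower, where 1916 of all were higher and 898 lower. Both counts rest on the 1-cell arrays with the high 18S signal, whose part in them was not tested.

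Uhrf1, the protein that brings Dnmt1 to hemimethylated DNA, was 1078 ± 306 in oocytes, 1618 ± 224 in 1-cell embryos, 572 ± 64.6 in 2-cell embryos, 60.1 ± 49.1 in 8-cell embryos and 391 ± 136 in blastocysts. Like Dnmt1 it was lower in 8-cell than in 2-cell embryos, by a change of -3.29 ± 0.36 (limma, adjusted p = 7.90e-08). Uhrf1 was called higher in blastocysts than in 8-cell embryos, by 2.71 ± 0.36 (limma, adjusted p = 2.81e-06). The bright Dnmt1 probe set changed in the same direction, by 0.35. Its change was not called in the reported fit, but was called without 8-cell array 2 and with spike scaling. The difference between the changes of Uhrf1 and Dnmt1 was not tested. In 8-cell against 2-cell embryos the cofactors split into 3 higher and 4 lower, where 25.8% of all tested probe sets were higher and 28.3% lower. Trim28, the partner of Zfp57, was at 2151 ± 395, against 628 ± 228 (1.80 ± 0.21), and Zfp57 at 7.45 ± 2.37, against 76.5 ± 20.2 (-2.23 ± 0.25). In blastocysts against 8-cell embryos 3 were called higher and 4 lower, where the shares over all were 21.8% and 20.7%. Dppa3, which protects maternal methylation in the zygote, was 2485 ± 497 in blastocysts, against 6608 ± 853 in 8-cell embryos (-1.42 ± 0.16), and the replication ligase Lig1 was 249 ± 32.6, against 97.3 ± 25 (1.29 ± 0.24). In blastocysts against oocytes 2 of the 12 were called higher and 8 lower, or 2 and 5 without blastocyst array 2. The shares over all were 32.2% higher and 32.1% lower. With spike scaling the last 2 counts were 6 higher and 0 lower, and 0 higher and 8 lower. Of all 8067 probe sets that scaling called 4596 higher and 200 lower, and 1873 higher and 2985 lower.

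Of genes of NuRD and of other corepressors, Polycomb genes among them, 34 were listed and 23 tested through 28 probe sets. In 1-cell embryos against oocytes 14 were called higher and 1 lower, with a median change of 0.54, where the median of all probe sets was 0.04. Over all tested probe sets 17.3% were called higher and 19.8% lower. Those higher included the Polycomb genes Ezh2, at 6740 ± 1277 in 1-cell embryos, against 2848 ± 465 in oocytes (1.24 ± 0.20), and Suz12 (103746_at), at 437 ± 36.4, against 89.4 ± 14.5 (2.17 ± 0.17). Another tested probe set of Suz12 (94044_at) was not among the list's 4 largest called changes here. The NuRD subunit Gatad2a (104110_at) was 442 ± 125 in 1-cell embryos, against 195 ± 48.8 in oocytes (1.14 ± 0.23). With spike scaling the count of this list was 1 higher and 10 lower, with a median of -0.48. Of all 8067 probe sets that scaling called 31 higher and 4560 lower, with a median of -0.87. With array weights 4 of the list were lower. The count also rests on the 1-cell arrays with the high 18S signal, whose part in it was not tested.

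In 2-cell against 1-cell embryos 6 of these 28 were called higher and 13 lower, where the shares over all tested probe sets were 26.0% and 21.2%. Those that rose included NuRD genes: the deacetylase Hdac1 was 424 ± 68.7 in 2-cell embryos, against 10.2 ± 2.16 in 1-cell embryos (4.35 ± 0.27, limma, adjusted p = 2.03e-11), Mta2 was 343 ± 107, against 79.2 ± 16.3 (1.94 ± 0.21), and Cdk2ap1 was 1782 ± 191, against 57.6 ± 17 (4.74 ± 0.21). The Polycomb gene Eed was lower, at 948 ± 269, against 3369 ± 182 (-1.85 ± 0.20). In 8-cell against 2-cell embryos 4 were higher and 11 lower, in a comparison that called 54.1% of all tested probe sets (25.8% higher, 28.3% lower). Among the lower was the corepressor scaffold Sin3a at 380 ± 46.0, against 1622 ± 274 (-2.06 ± 0.15). With spike scaling 1 was higher and 13 lower, where 852 of all 8067 probe sets were higher and 3233 lower. In blastocysts against 8-cell embryos 3 were higher and 8 lower (21.8% and 20.7% over all), and Hdac1 was 403 ± 117, against 967 ± 75 (-1.27 ± 0.26). With spike scaling the count of this blastocyst step was 19 higher and 1 lower, and that of the 2-cell step 4 higher and 5 lower. Of all 8067 probe sets that scaling called 4596 higher and 200 lower, and 1916 higher and 898 lower. Blastocysts against oocytes gave 6 higher and 10 lower, where the shares over all were 32.2% and 32.1%.

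Of 28 genes of cytosine oxidation, deamination and base excision repair, the path in which Mbd4 acts, 16 were tested through 20 probe sets. Calls went in both directions: 2 were higher and 6 lower in 1-cell embryos against oocytes, 5 and 6 in 2-cell against 1-cell embryos, 6 and 4 in 8-cell against 2-cell embryos, 2 and 5 in blastocysts against 8-cell embryos, and 4 and 6 in blastocysts against oocytes. Of all tested probe sets these comparisons called 37.1%, 47.2%, 54.1%, 42.5% and 64.3% in either direction. The 6 lower of the 2-cell step were 3 without 2-cell array 3, and the 5 lower of the blastocyst step were 8 without 8-cell array 4 and 10 with median centring. With spike scaling the 5 counts, in the same order, were 0 higher and 12 lower, 5 and 2, 5 and 7, 5 and 0, and 2 and 7. Of all 8067 probe sets that scaling called 31, 1916, 852, 4596 and 1873 higher and 4560, 898, 3233, 200 and 2985 lower. With the stricter filter the 2-cell step had 3 higher and 2 lower of the 7 probe sets then tested. Apex1, the endonuclease that cuts the site a glycosylase leaves, was 167 ± 65.6 in 1-cell embryos, against 517 ± 81.6 in oocytes (-1.62 ± 0.22, limma, adjusted p = 3.51e-06), in the step in which Mbd4 was called higher. In 8-cell embryos it was 1817 ± 152, against 448 ± 106 in 2-cell embryos (2.01 ± 0.22). Gadd45b, a stress gene linked to demethylation, was 108 ± 35.7 by 102779_at in 2-cell embryos, against 19.2 ± 3.69 in 1-cell embryos (1.94 ± 0.29). By 161666_f_at it was 226 ± 36.6, against 2.67 ± 2.29 (4.11 ± 0.26), a larger change. That probe set was called lower in 1-cell embryos against oocytes (-1.03 ± 0.24) and in 8-cell against 2-cell embryos (-2.15 ± 0.24). Gadd45g was 179 ± 65.5 in blastocysts, against 36.5 ± 9.59 in 8-cell embryos (1.97 ± 0.26).

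**Figure D4:**
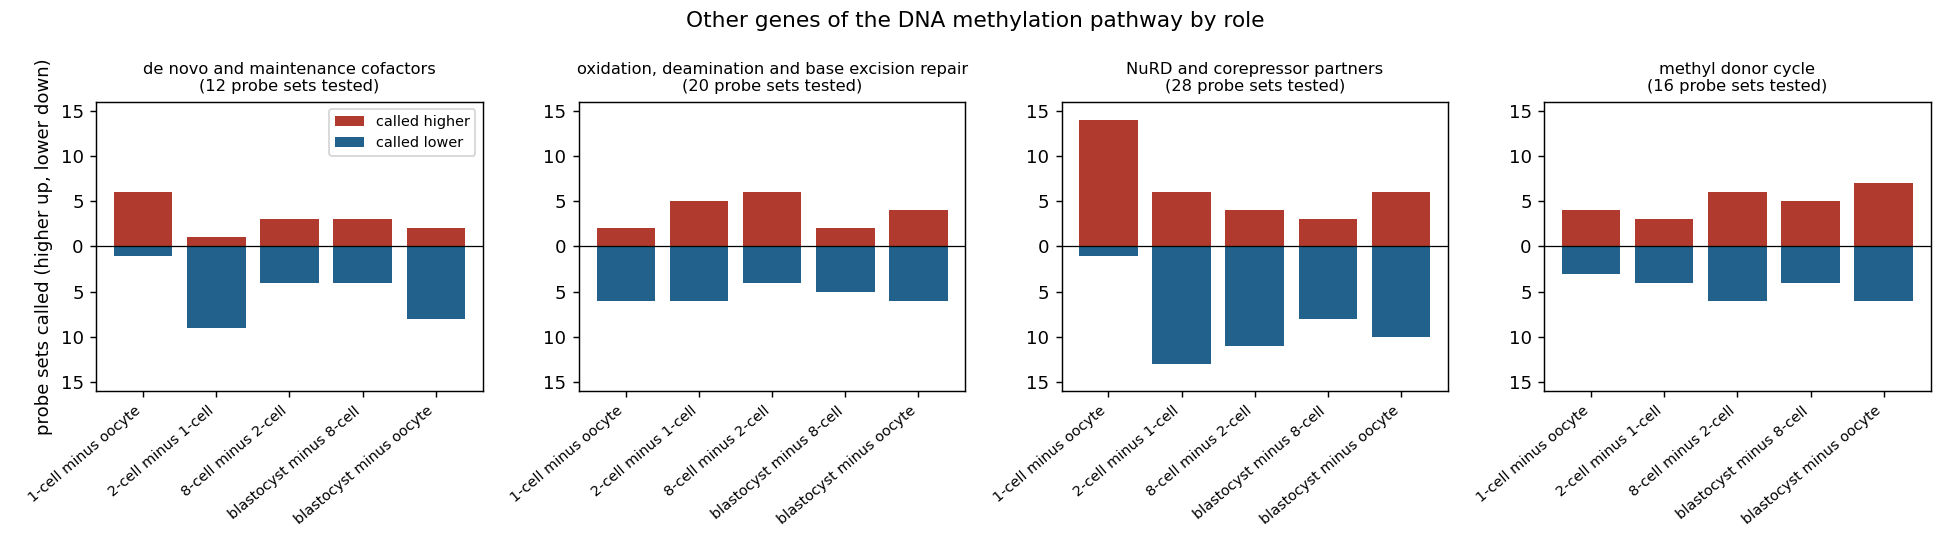
Number of probe sets called higher (above 0) and lower (below 0) in each comparison for the lists of related genes, out of 12 for the cofactors, 20 for oxidation, deamination and repair, 28 for NuRD and corepressors and 16 for the methyl donor cycle. The list of cofactors and that of NuRD and corepressors, which includes Polycomb genes, have 6 and 14 called higher in 1-cell embryos against oocytes. They have 9 and 13 called lower in 2-cell against 1-cell embryos. Over all tested probe sets 17.3% were called higher in the first of these comparisons and 21.2% lower in the second.

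The methyl donor cycle makes S-adenosylmethionine, the methyl source of the Dnmt enzymes. Of 25 genes, 10 were tested through 16 probe sets, with calls in both directions: 4 higher and 3 lower in 1-cell embryos against oocytes, 3 and 4 in 2-cell against 1-cell embryos, 6 and 6 in 8-cell against 2-cell embryos, 5 and 4 in blastocysts against 8-cell embryos, and 7 and 6 in blastocysts against oocytes. The shares of all tested probe sets called in either direction were 37.1%, 47.2%, 54.1%, 42.5% and 64.3%, in the same order. The first count was 2 higher and 3 lower without any one of oocyte arrays 1, 3 and 4 or of the 1-cell arrays, and 0 higher and 9 lower with spike scaling. That scaling gave 3 higher and 2 lower in the 2-cell step, 3 and 8 in the 8-cell step, and 9 and 0 in blastocysts against 8-cell embryos. Of all 8067 probe sets it called 31, 1916, 852 and 4596 higher and 4560, 898, 3233 and 200 lower in the consecutive steps, in order. Bhmt (94049_at), which remakes methionine from homocysteine, was 9150 ± 863 in 8-cell embryos, against 164 ± 124 in 2-cell embryos (5.96 ± 0.33, limma, adjusted p = 1.93e-12). Mat2b (94469_at), the regulatory subunit of the enzyme that makes S-adenosylmethionine, was 333 ± 7.02 in blastocysts, against 5178 ± 456 in oocytes (-3.91 ± 0.15). Ahcy (96025_g_at), which clears the product that inhibits methyltransferases, was 2108 ± 397 in blastocysts, against 434 ± 123 in 8-cell embryos (2.28 ± 0.19).

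Of 8 further readers and relatives of the Mbd genes, 1 had a probe set, Mbd6 (104187_at). It was not called in any of the 5 comparisons, with changes between -0.11 and 0.07. With spike scaling it was called lower in 1-cell embryos than in oocytes (-0.999) and higher in blastocysts than in 8-cell embryos (1.10), where the median of all probe sets moved by -0.87 and 0.89.

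**Figure D5:**
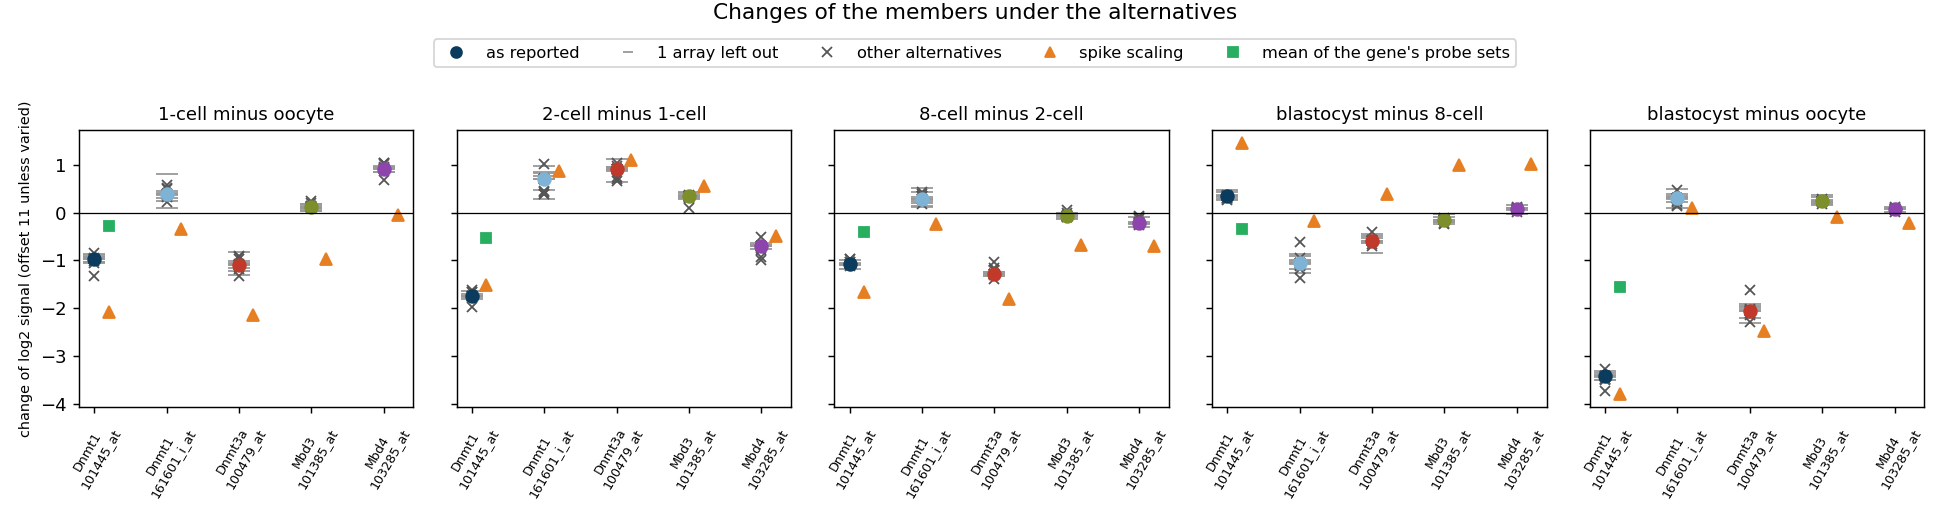
Change of the log2 signal of each tested member probe set in the 5 comparisons (y axis, later minus earlier stage) as reported and under the other settings, with a mark for each. The bright Dnmt1 probe set stays below 0 in the first 3 steps and between blastocyst and oocyte under each setting drawn. Spike scaling (triangles) puts Mbd3 at -0.97 and Mbd4 at -0.05 in 1-cell embryos against oocytes, and Dnmt1 at 1.46 and Dnmt3a at 0.38 in blastocysts against 8-cell embryos.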

How the data were processed

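Total RNA of 17 samples was measured on single-colour arrays after 2 rounds of amplification, per the labels. The authors deposited 1 signal intensity per probe set and array, on a linear scale and without detection calls. Software and scaling target are not given in the sources used here. The middle 96% of each array's values averaged 149.448 to 149.923, and no further scaling was applied. Probe sets were named through the platform annotation, with symbols updated through a RefSeq table (10833 of 12488 had 1 symbol, 396 several). All 17 deposited value columns were matched to a sample by title.

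The deposited intensity values were taken to log2 after adding 11, and 66 control probe sets were left out. In R 4.3.3 with limma 3.58.1, one mean for each stage was estimated from all arrays (lmFit, eBayes with an intensity trend, 12 residual degrees of freedom), with two-sided tests adjusted by Benjamini and Hochberg over the 8067 probe sets within each comparison. The fit was tested on simulated data. The number of arrays limits the precision.

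The members, gene lists, tests and alternatives were chosen with earlier results of these data known. The members were named in full. From each list of related genes, up to 4 called probe sets with the largest change per comparison could be named, and for each tested member the 3 probe sets of other genes with the highest correlation. For lists, landmark genes and other cell types, values are given for a part of those allowed, and Ovgp1 was singled out after its values were seen. Several replicates of different stages carry the same number, but arrays of the same number did not deviate together: their correlations after removal of stage means lay between -0.084 and 0.125 (31 pairs), so the numbers were not used as a block. The labels give no batch. The alternatives were quantile normalization, median centring, scaling to 9 hybridisation spike probe sets, offsets of 1 and 41, no filter and a filter at 152.5, no trend, weights per array, replicate numbers as blocks, a fit on only the 2 stages of a comparison, the mean over Dnmt1's probe sets, 1 probe set per gene in the lists, and leaving out each array. Sequences upstream of starts came from RefSeq (GRCm38.p6). Mbd1 and Mbd2 are named without sequence.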

Additional observations from a re-analysis of the deposited data

Results flagged for a closer look

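Of 16 groups of 4 arrays (the 8 member probe sets in oocytes and in 8-cell embryos), 1 held an array that stood apart from its group by Dixon's criterion at 0.829, which chance meets in about 1 group in 20. This was the dim second probe set of Dnmt3a (161170_r_at), which read 11.4 on 8-cell array 2 and 0.8, 1.0 and 0.9 on the other 8-cell arrays, with a gap of 0.981 of the group's range. All of these signals lie under the filter at 41.1. The same array had the high oviduct signals, with Ovgp1 (100521_at) at 6212.4, and whether it bears on this probe set was not tested. The tested probe set of Dnmt3a (100479_at) read 86.0 on that array, the highest of its stage, against 69.6 to 75.5 on the others.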

How the results depend on the processing

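The changes of the bright Dnmt1 probe set and of Dnmt3a in 1-cell embryos against oocytes, 2-cell against 1-cell embryos, 8-cell against 2-cell embryos and blastocysts against oocytes kept their direction and call under quantile normalization, median centring, spike scaling, both other offsets, both other filters, no trend, array weights, the block, only the stages compared and each array left out. The exception was the mean over Dnmt1's probe sets, which gave -0.29 in 1-cell embryos against oocytes and -0.40 in 8-cell against 2-cell embryos, neither called, and -0.35 in blastocysts against 8-cell embryos. Leaving out 1 array changed no member's direction or call (85 values per comparison) in 1-cell embryos against oocytes, 8-cell against 2-cell embryos and blastocysts against oocytes.

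Spike scaling moved the median of all tested probe sets by -0.87, 0.23, -0.58, 0.89 and -0.39 over the 5 comparisons (1-cell minus oocyte, 2-cell minus 1-cell, 8-cell minus 2-cell, blastocyst minus 8-cell, blastocyst minus oocyte), and the mean log2 spike signal was 9.60 in oocytes, 10.71 in 1-cell, 10.49 in 2-cell and 11.13 in 8-cell embryos and 9.95 in blastocysts. It called 31, 1916, 852, 4596 and 1873 probe sets higher and 4560, 898, 3233, 200 and 2985 lower, where the reported fit called 1397, 2096, 2083, 1760 and 2597 higher and 1597, 1714, 2281, 1672 and 2587 lower. Median centring called 1804 higher and 1350 lower in the first comparison, and 1679 higher and 2373 lower in the second. With spike scaling the dim Dnmt1 probe set was at -0.35 in 1-cell embryos against oocytes, -0.25 in 8-cell against 2-cell embryos, -0.17 in blastocysts against 8-cell embryos and 0.44 in blastocysts against 1-cell embryos. Mbd3 was at -0.97 in 1-cell embryos, -0.41 in 2-cell embryos, -1.09 in 8-cell embryos and -0.10 in blastocysts, each against oocytes, at -0.12 in 8-cell against 1-cell embryos, at 0.99 in blastocysts against 8-cell embryos and at 0.31 against 2-cell embryos. Mbd4 was at -0.051, -0.54, -1.24 and -0.23 in 1-cell, 2-cell and 8-cell embryos and blastocysts against oocytes. It was at -0.49 in 2-cell against 1-cell embryos. In blastocysts it was at 1.01 against 8-cell, 0.31 against 2-cell and -0.17 against 1-cell embryos. Dnmt1 was at 1.455 and Dnmt3a at 0.38 in blastocysts against 8-cell embryos. Under it 0 members were called higher in 1-cell embryos against oocytes, while the bright Dnmt1 probe set, Dnmt3a and Mbd3 were called lower. It called 1 lower in 2-cell against 1-cell embryos. In blastocysts against 8-cell embryos it called 3 higher (the bright Dnmt1 probe set, Mbd3 and Mbd4) and 0 lower. Small differences of Mbd3 and Mbd4 changed sign elsewhere: with median centring Mbd3 was at 0.051 in 8-cell against 2-cell embryos and -0.063 in blastocysts against 1-cell embryos, and Mbd4 at -0.0022 in 8-cell embryos against oocytes. With quantile normalization Mbd4 was at -0.058 in 8-cell embryos against oocytes and 0.027 in blastocysts against 2-cell embryos. The causes were not tested.

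The fall of Dnmt3a in blastocysts against 8-cell embryos lost its call at an offset of 41 (-0.41), with no filter (-0.59), with no intensity trend (-0.59), with array weights (-0.61) and with only the stages compared (-0.59), with adjusted p between 0.0506 and 0.0944, so that 1 member was called lower. With the replicate number as a block it was at -0.57 (limma, adjusted p = 0.0860), again with 1 member called lower, and the block changed no other member's call in the 5 comparisons. Leaving out 1 array gave -0.85 to -0.45 for Dnmt3a there, 0.25 to 0.46 for Dnmt1, -1.26 to -0.87 for its dim probe set, and -0.036 to 0.155 for Mbd4, with 0 to 1 members called higher and 0 to 2 lower. The lone positive call was Dnmt1 without 8-cell array 2. In 2-cell against 1-cell embryos it gave 0.28 to 0.98 for the dim Dnmt1 probe set, called without 1-cell array 2, with 1 to 2 members called higher. It gave -0.075 to 0.116 for Mbd4 in 8-cell embryos against oocytes and -0.49 to 0.21 for the dim Dnmt1 probe set in blastocysts against 1-cell embryos. With the stricter filter, under which Mbd4 and the dim Dnmt1 probe set were not tested, 0 members were higher in 1-cell embryos against oocytes, and 1 was lower in 2-cell against 1-cell embryos and in blastocysts against 8-cell embryos. The 3 or 4 arrays per stage and the dim signals of 4 of the 8 probe sets limit what can be told.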
